A study of Mus musculus with 5 samples.

Results

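The cytosolic ribosomal protein genes are described here as a group of 83 genes, 34 named for proteins of the small ribosomal subunit (Rps) and 49 for proteins of the large subunit (Rpl). They were chosen by symbol, as every gene whose name starts with Rps or Rpl followed by a digit, without the suffix -ps of annotated pseudogenes and without the Rps6k kinases. All 83 carried such a name among the 33696 genes measured in MC38 tumors, and 82 did among the 32285 genes measured in tumor-draining lymph nodes (TDLNs), because Rps23rg1 has another symbol there. The group was picked with its share of the RNA molecules by cell class, by depth, and by treatment in MC38 tumors already in view, so values of those 3 kinds are given as a description and support nothing further. By name 73 genes are core members, and 10 are paralogs, retrogene copies, or, as Rps19bp1, the product of another gene that binds a ribosomal protein.

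The data are scRNA-Seq counts from 5 droplet reactions of male C57BL/6J mice, 3 of TDLNs from mice with TRAMP-C2 tumors (a transplantable mouse prostate cancer line) and 2 of MC38 tumors (a transplantable mouse colon cancer line). After implantation, each mouse received isotype antibodies or CPI (anti–PD-1 combined with anti-CTLA4), given on days 3, 6, and 9. For MC38 the paper differs on day 0. Its scRNA-Seq methods count from implantation, and a figure legend counts from the time tumors reached a set volume. Vehicle or 20 mg/kg of the JAK1 inhibitor ABT-317 followed on day 12, and tissue was taken on day 15. The 4 groups are therefore isotype, CPI, isotype + ABT-317, and CPI + ABT-317. Cells were labeled with hashtag antibodies and pooled before loading. The MC38 hashtags cover all 4 groups, whereas a TDLN scRNA-Seq legend of the paper names only isotype, CPI, and CPI + ABT-317. TDLN cells were unsorted, whereas live CD45+ and CD45- tumor cells were sorted and mixed in equal numbers, so cell proportions in MC38 tumors were set by the sort. Hashtag counts are 0 throughout in the TDLN tables, so TDLN values cover whichever treatments were pooled there, together. A reaction is 1 sample of a pool, and nothing in the labels says that separate animals went into each. Spreads and p-values over reactions may therefore measure no more than the spread between loads, and may be technical. The paper describes repeat experiments for its scRNA-Seq, by name for TDLNs, without saying which reaction came from which. Spreads over reactions, those of TDLNs above all, may thus also include differences between experiments, and the part of these was not tested.

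A cytosolic ribosome reads messenger RNA with its small subunit and joins amino acids with its large subunit, and each core member supplies 1 protein of that machine. Their transcripts are short, abundant, and stable, and in mammals most begin with a C followed by an unbroken run of C and T, the terminal oligopyrimidine tract, through which mTOR signaling controls their translation.

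The start of transcription is shown for 8 members on which the results below turn, so that the starts of several members can be set beside the pyrimidine tract described above, which their choice by name did not use. The sequences are from RefSeq promoters on GRCm38.p6. Each has 30 bases, 10 before the annotated start and 20 from it on, and capitals mark the longest run of at least 5 C or T that opens with a C within 5 bases of the start. Rps24 has 2 annotated starts, and the one shown was chosen by the length of that run. Rps27 lies at chr3:90213629-90213658 on the minus strand, its retrogene copy Rps27rt at chr9:114982720-114982749 on the minus strand, Rps15a at chr7:118116128-118116157 on the minus strand, and Rps18 at chr17:33955646-33955675 on the minus strand. Rps6 lies at chr4:86857348-86857377 on the minus strand, Rps24 at chr14:24490668-24490697 on the plus strand, Rpl41 at chr10:128549149-128549178 on the minus strand, and Rpl4 at chr9:64173377-64173406 on the plus strand.
Rps27: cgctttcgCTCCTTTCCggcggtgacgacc
Rps27rt: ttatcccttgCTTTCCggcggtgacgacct
Rps15a: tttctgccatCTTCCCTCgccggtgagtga
Rps18: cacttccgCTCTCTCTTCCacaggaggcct
Rps6: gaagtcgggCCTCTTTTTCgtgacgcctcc
Rps24: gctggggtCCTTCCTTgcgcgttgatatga
Rpl41: gggccggctcggaagtgacgacaccgagca
Rpl4: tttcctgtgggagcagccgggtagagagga

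The first 6 carry such a run, of 6 to 11 bases, and Rpl41 and Rpl4 have none at the annotated start. Promoters were found for 54 of the 73 core members. A C at the first base with at least 4 pyrimidines after it was present in 12 of them (22.2%), against 3.01% of 27025 genes in the same table, and a run within 5 bases of the start in 26 (48.1%), against 21.2%. In the 300 bases from 250 before to 50 after the start, read on both strands, CCGGAAG, a core of ETS family sites, was in 22 core members (40.7%, against 9.93% of all genes), and AAGATGGC, a core of YY1 sites, in 5 (9.26%, against 3.19%). The 69 mitochondrial ribosomal protein genes with promoters had CCGGAAG in 37.7% and AAGATGGC in 17.4%. TATAAA was in 5 (9.26%, against 15.7%) and CCAAT in 16 (29.6%, against 41.1%). These are matches of letters in windows around annotated starts, not bound sites. A gene with several starts counted if any of them matched (64 windows for the 54 core members, 32851 for the 27025 genes).

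Gene UMIs (unique molecular identifiers, each marking 1 captured RNA molecule) totaled 127052825, 105259770, and 18055617 in TDLN reactions 1, 2, and 3 and 435031691 and 377184807 in MC38 reactions 1 and 2. With the filters of the study's methods (at least 200 and fewer than 2500 genes, under 10% mitochondrial UMIs), 62322, 56229, and 6518 TDLN barcodes and 15219 and 9682 MC38 barcodes were kept. The paper's own TDLN map shows far fewer cells in total, so most of these TDLN barcodes were not among the cells it shows. TDLN values below rest on all of the kept barcodes. Pairs of reactions shared 271 to 4842 barcode sequences, 3.84% to 8.70% of the smaller list. Barcodes were put in a class when at least 2 of its 8 marker genes were present and led every other list of the 10 by at least 2 markers, so a class is a gate on markers and not a proven cell type. Of the TDLN barcodes kept, 57.8%, 51.3%, and 56.2% got no class. Of TDLN T class barcodes, 94.3%, 86.7%, and 93.9% also held a UMI of a B cell marker, and their summed B list was 2235, 1596, and 2077 counts per 1000000 gene UMIs (CPM), against 4485, 4614, and 4268 CPM in the B class. The tumor list with keratins put only 1 and 0 MC38 barcodes in a class, so no class of MC38 cancer cells could be formed, and the class defined by Col1a1, Col3a1, and other matrix genes is called the collagen class because such genes do not tell fibroblasts from cancer cells here.

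Among barcodes that passed the filters, the members held 22.7%, 23.8%, and 23.3% of gene UMIs in the TDLN reactions and 20.8% and 18.2% in the MC38 reactions. MC38 tumors lay below TDLNs in both reactions. Without the upper limit of 2500 genes the order turned round, with 22.7%, 23.9%, and 24.1% in TDLNs and 27.1% and 25.9% in MC38 tumors. The limit left out 249, 280, and 532 TDLN barcodes but 18543 and 13650 MC38 barcodes, in which the members held 27.9% and 26.7%.

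Of the 10 most abundant members of each tissue, 6 were shared (Rpl41, Rps24, Rpl13, Rps20, Rpl37a, and Rpl37). Levels are in CPM from 5′ tags, which count a molecule once whatever its length. Members are ordered by their mean over reactions, and the order within a single reaction can differ. In TDLNs, Rps24 was highest at 9897, 9117, and 9765 CPM. It was followed by Rps29 (5349, 9380, and 8979 CPM), which also had the widest gap between reactions among the 10 highest, with reaction 1 below the other 2 and reaction 2 above Rps24. Rpl41, which encodes the smallest protein of the ribosome, was at 6644, 7072, and 8215 CPM. Rpl13, Rps27, Rps28, Rps20, Rpl37a, Rpl39, and Rpl37 came next, with means of 6822, 6445, 6422, 6117, 5967, 5845, and 5207 CPM. These 10 genes made up 29.1% of the members' UMIs.

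In MC38 tumors, Rpl41 was highest at 7860 and 5214 CPM and Rps24 was next at 5475 and 5268 CPM, although in reaction 2 both Rps24 and Rpl13 (5308 CPM) lay above Rpl41. Rpl30 was at 6502 and 3875 CPM, Rpl37a at 6169 and 3957 CPM, and Rpl37 at 6024 and 3367 CPM, all with reaction 1 above reaction 2. Rpl13, Rps20, Rps27a (a fusion of ubiquitin with a small subunit protein), and Rpl23 had means of 5179, 5076, 5045, and 4506 CPM. The 10 highest made up 26.3% of the members' UMIs there. Rps29, Rps28, Rpl39, and Rps27, which ranked 2, 6, 9, and 5 in TDLNs, ranked 24, 37, 40, and 58 in MC38 tumors. Among core members the lowest were Rpl23a in TDLNs (326 CPM) and Rpl4 in MC38 tumors (647 CPM), and the median core member was at 3176 and 2472 CPM.

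The members' share differed between the T and macrophage classes of MC38 barcodes by more than between the 2 reactions. It was 23.8% and 23.8% in the T class (343 and 371 barcodes), 19.0% and 17.8% in the macrophage class (6723 and 5648), 21.8% and 17.5% in the collagen class (3990 and 1697), and 17.7% and 17.1% in the endothelial class (59 and 42). The neutrophil class was lowest at 12.3% and 8.46%, from only 48 and 28 barcodes, with medians over barcodes of 13.0% and 5.14%. Without the limit of 2500 genes its 53 and 31 barcodes had medians of 13.5% and 5.39%, while the share of their summed UMIs was 20.7% and 22.2%. The mean was 23.8% ± 0.00568 (SD, n = 2 reactions) in the T class and 18.4% ± 0.838 (SD, n = 2) in the macrophage class, so the T class was higher by 4.82 and 6.01 percentage points, and by a mean of 3.08 without the limit of 2500 genes. Without that limit the T class was at 26.7% and 26.4% and the collagen class at 26.3% and 25.2%. The plasma cell class, of 80 and 90 barcodes there, lay above both at 31.9% and 29.9%. In TDLNs, with the limit, the T and B classes lay close, at 23.8% ± 0.637 and 22.8% ± 0.550 (SD, n = 3), with the T class above the B class in each reaction. These gates were mixed, since 91.9%, 82.1%, and 88.9% of TDLN B class barcodes held a T marker and most T class barcodes a B marker. The part of this mixing in the closeness was not tested. In MC38 tumors the collagen class overlapped the macrophage and endothelial classes, and it had the widest gap between reactions (SD 3.05, n = 2). Within a class, barcodes spread widely, from a 10th percentile of 11.6% to a 90th percentile of 23.9% in macrophage class barcodes in reaction 1. Beside these shares, 61.8% and 43.1% of MC38 T class barcodes held a macrophage marker, at summed levels of 737 and 741 CPM, against 12540 and 16221 CPM in the macrophage class. Their part in the shares was not tested.

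**Figure D1:**
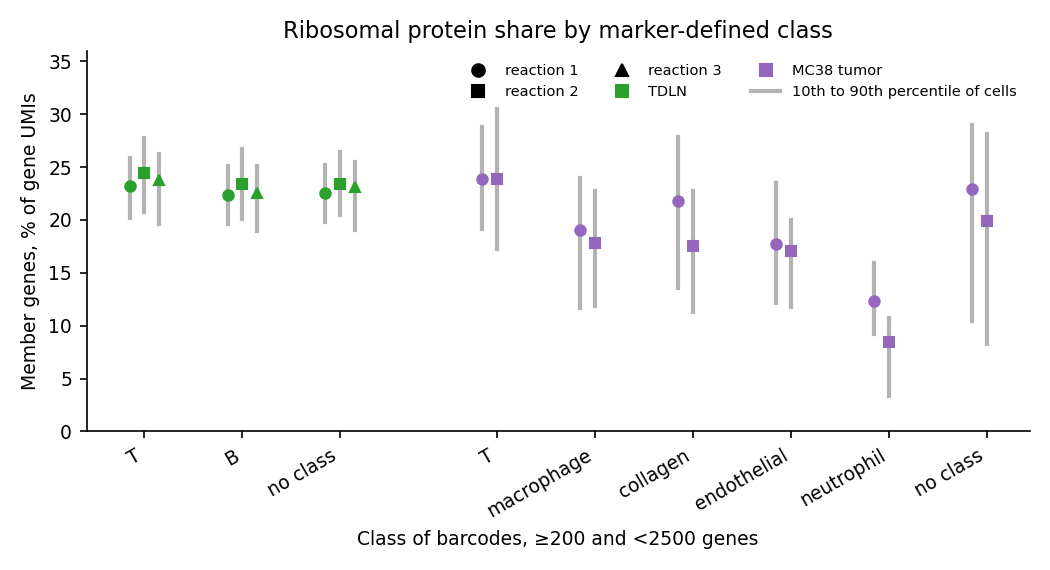
Share of gene UMIs held by the ribosomal protein genes (vertical axis, percent, from 0) in each marker-defined class (horizontal axis), with 1 point per reaction from summed UMIs, green for TDLNs and purple for MC38 tumors, and gray bars from the 10th to the 90th percentile of barcodes. The T classes of both tissues sit between 23.2% and 24.5%, the macrophage class at 19.0% and 17.8%, and the neutrophil class at 12.3% and 8.46%.

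The difference between the T and macrophage classes was spread over most members but was far from even. Of 79 members with enough UMIs, 64 were higher in the T class in both reactions (across all genes 48.1% were higher in both), with medians of 0.31 and 0.39 on the log2 scale, against 0.19 and 0.15 for all genes. Rps27, of the small subunit, had 3906 and 3577 CPM in the T class and 1519 and 1194 CPM in the macrophage class, a log2 difference of 1.36 and 1.58. Its retrogene Rps27rt was at 83.7 and 105 CPM against 37.3 and 29.1 CPM, with the largest mean log2 difference of 1.52, and since the copies are alike, reads of the one may be counted for the other. Rps15a, Rpl13a, and Rps21 were the other 3 farthest above the median, with mean log2 differences of 1.11, 0.98, and 0.90.

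Members of both subunits lay below the median. Rps27l, a paralog of Rps27 known as a target of p53, was at 320 and 167 CPM in the T class and 435 and 391 CPM in the macrophage class, so that the parent and its paralog were high in opposite classes. Rpl28 and Rpl31 were also lower in the T class in both reactions, with mean log2 differences of -0.38 and -0.35, and Rpl7l1, a paralog with a role in ribosome assembly, had 0.00244 and -0.69. These log2 differences of the members correlated between the 2 reactions (Pearson's r = 0.94 across 79 genes, which are not independent and share the library of each reaction).

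The collagen and macrophage classes differed less in level than in composition. In collagen class barcodes 34 of 79 members were higher in both reactions, below the 54.5% of all genes, and the members' median log2 difference was 0.13 in reaction 1 and -0.06 in reaction 2. Rpl30 was at 8751 and 4883 CPM in the collagen class and 3790 and 2954 CPM in the macrophage class, the widest gap. Rpl37, Rps19bp1, Rpl5 (which binds 5S ribosomal RNA and Mdm2), and Rps15 were also above the median in both reactions, with mean log2 differences of 0.69, 0.67, 0.59, and 0.54. Rps25, Rps9, Rpl32, and Rpl39 lay below it in both, with mean differences of -0.42, -0.37, -0.36, and -0.36. In the neutrophil class 73 of 79 members were lower than in the macrophage class in both reactions, against 23.3% of all genes, with medians of -0.67 and -1.11. Neutrophil class barcodes were shallower, with median UMIs of 853.5 and 686.5 against 3044 and 3597 in the macrophage class. Macrophage class barcodes of 500 to 1000 UMIs had a members' share of 16.1% and 13.7%. The part of depth in this difference was not tested.

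**Figure D2:**
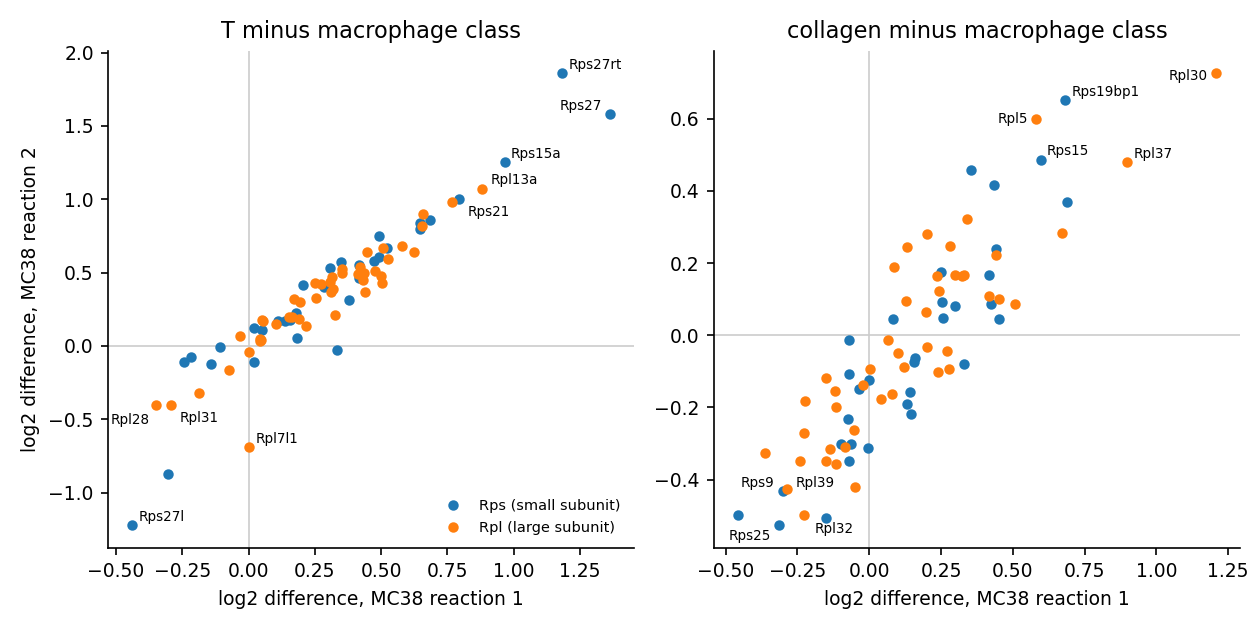
Log2 difference of each of 79 members between classes of MC38 barcodes, in reaction 1 (horizontal axis) and reaction 2 (vertical axis), for T minus macrophage (left) and collagen minus macrophage (right), with Rps genes in blue and Rpl genes in orange. Most members lie above 0 on the left, with Rps27 and Rps27rt at the top and Rps27l at the bottom, whereas on the right they scatter around 0 and Rpl30 lies farthest up.

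The other genes of protein synthesis did not follow the members in every class. The 7 cytosolic ribosomal proteins with other names (among them Rpsa, Rplp0, Rplp1, Rplp2, Fau, and Rack1) had median T minus macrophage log2 differences of 0.29 and 0.31, near those of the members. Of 12 translation factors, 12 and 11 were higher in the T class, with medians of 0.42 and 0.55. The 77 mitochondrial ribosomal protein genes had medians of -0.03 and -0.27. In the collagen class, ribosome biogenesis genes such as Npm1 and Ncl were higher than in the macrophage class in 13 of 14 and 13 of 13 cases, with medians of 0.66 and 0.57, where the members had 0.13 and -0.06.

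Over the 10 MC38 class sums (T, macrophage, neutrophil, collagen, and endothelial in both reactions), the genes outside the group whose log2(CPM + 1) tracked the members' share most closely were Hacd3, Cox14, Rack1, Trim59, Adamts6, Zbtb25, Hycc2, Kdm2b, Snrpg, and Etaa1. Their Pearson's r lay between 0.946 and 0.961, among 11280 genes, and the sums share libraries and differ in depth. In the neutrophil sums, which had the lowest shares, 3 counts equal 58.0 and 108 CPM, so a low gene can be at 0 there. The part of this floor in the ranks was not tested. Rack1, a protein of the small subunit, ranked 3, and Rplp1, Rplp2, and Rpsa ranked 30, 41, and 46.

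The 10 members that are no core genes ranged from abundant to undetected. Rpl22l1, the paralog of Rpl22, had 1058, 776, and 739 CPM in the TDLN T class and 593 and 624 CPM in the MC38 T class, and it made up 37.3%, 28.2%, and 27.2% of the pair in the former and 22.9% and 23.9% in the latter. Rpl36al, the paralog of Rpl36a, was at 706, 765, and 868 CPM in the TDLN T class and 1155 and 1095 CPM in the MC38 T class. By their means over all barcodes that passed the filters, Rpl22l1 and Rpl36al ranked 66 and 67 in TDLNs and 75 and 68 in MC38 tumors, where Rpl22l1 lay below every core member. Rps27l made up 22.3% and 24.7% of its pair with Rps27 in the macrophage class and 7.58% and 4.45% in the T class.

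Rpl7l1, the paralog of Rpl7, was at 46.3 and 51.6 CPM and Rps19bp1, whose product binds the one of Rps19, at 48.5 and 38.8 CPM in the macrophage class. Rpl39l, a paralog of Rpl39 best known from testis, had 11.5 and 14.7 CPM in the collagen class, from 172 and 95 UMIs, and 0.723 and 1.13 CPM in the macrophage class. Rpl3l, the muscle paralog of Rpl3, had 55 and 54 UMIs in all MC38 barcodes and 12, 5, and 2 in TDLNs. Rps23rg1, a retrogene of Rps23, had 34 and 19 UMIs in all MC38 barcodes, and its gene ID, listed under another symbol in TDLNs, had 5, 43, and 4 UMIs in the TDLN T class and 0 and 0 in the MC38 T class. At a floor of 3 counts these zeros allow up to 5.46 and 5.82 CPM. The TDLN T class levels of 0.138, 0.982, and 0.821 CPM lie below that, so no tissue difference can be read from them. Rpl10l, the testis paralog of Rpl10, had 0 UMIs in all 5 reactions, which at a floor of 3 counts allows up to 0.136 and 0.141 CPM in the macrophage class of MC38 tumors, for counting error only. Rpl3l, Rpl10l, Rpl39l, and Rps23rg1 were too low for the tests below, which cover the other 79 members.

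In MC38 tumors the members' share was largest in the deepest barcodes. Barcodes of 500 to 1000 UMIs had 17.6% and 15.9%, those of 2000 to 4000 UMIs had 19.3% and 17.6%, those of 4000 to 8000 UMIs had 20.0% and 17.3%, and those of 16000 UMIs and over had 29.4% and 27.8%. The deepest barcodes lay above every shallower bin in both reactions. Across barcodes the share and the UMI total had Spearman's rho of 0.61 and 0.66, over 33762 and 23332 barcodes that share a library and whose share has that total as its denominator. TDLN reaction 3 had a rho of 0.67 and went from 20.2% to 26.9%, whereas TDLN reactions 1 and 2 had -0.00184 and -0.08 and lay between 22.1% and 26.7% in every bin.

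The deepest barcodes had the largest share in the macrophage and collagen classes too, while the T class had few barcodes above 4000 UMIs. Macrophage class barcodes were nearly level from 2000 to 4000 UMIs (19.0% and 18%) to 4000 to 8000 UMIs (19.0% and 17.9%). They went from 16.5% and 15.6% at 1000 to 2000 UMIs to 29.0% and 27.1% at 16000 UMIs and over, a difference of 12.0 percentage points ± 0.678 (SD, n = 2). Collagen class barcodes had 18%, 19.0%, 19.8%, 20.2%, 24.3%, and 28.3% in reaction 1 and 15.0%, 16.2%, 15.9%, 16.0%, 21.8%, and 26.7% in reaction 2 from the shallowest to the deepest bin, so that in reaction 2 the share was nearly level up to 8000 UMIs. T class barcodes had 23.5%, 24.4%, and 23.5% in reaction 1 and 23.3%, 24.9%, and 23.8% in reaction 2 at 500 to 1000, 1000 to 2000, and 2000 to 4000 UMIs. The only deeper T class bin with at least 20 barcodes, of 16000 UMIs and over in reaction 2, had 29.0% from 24 barcodes, and 100% of them carried several hashtags. Beside the macrophage class gradient, 99.4% and 98.8% of macrophage class barcodes with 16000 UMIs and over held a collagen class marker, against 57.4% and 34.0% at 1000 to 2000 UMIs, and 84.7% and 78.1% carried several hashtags, against 18.7% and 12.1%. Mitochondrial UMIs were 1.38% and 1.28% of the total in the deepest bin and 3.18% and 3.01% in the shallower one. The summed macrophage list, with 8 of 8 markers detected, was 2345 and 3027 CPM in the deepest bin and 8654 and 11374 CPM in the shallower one. The part of these measures in the gradient was not tested.

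Between these depths 75 of 79 members were higher in the deepest macrophage class barcodes in both reactions, against 44% of all genes, with medians of 0.74 and 0.75 on the log2 scale where all genes had -0.09 and 0.03. Rpl8, of the large subunit, was at 1188 and 1125 CPM at 1000 to 2000 UMIs and 3910 and 4263 CPM at 16000 UMIs and over, the widest difference at 1.82 on average. Rps2 and Rpl30 followed with 1.75 and 1.68. Rps29 and Rpl39 went the other way in both reactions, with mean differences of -0.59 and -0.34. All 13 mitochondrially encoded genes were lower in both, whereas 73 of 78 mitochondrial ribosomal protein genes were higher in both.

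The limit of 2500 genes cut across this gradient. Among MC38 barcodes of 4000 to 8000 UMIs, those below the limit had 21.4% and 18.1% and those at or above it had 16.2% and 14.9%. The number of genes and the share are measured on the same UMIs, and UMIs were not matched within this bin. In the macrophage class the gap was 19.4% against 15.3% in reaction 1 and 18% against 16.1% in reaction 2.

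**Figure D3:**
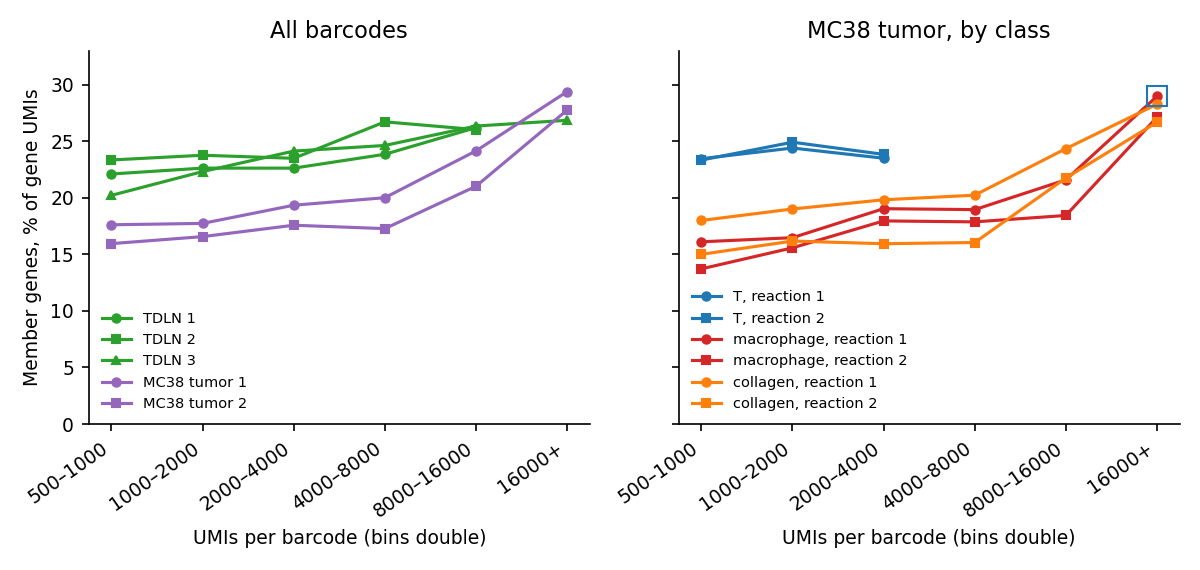
Share of gene UMIs held by the ribosomal protein genes (vertical axis, percent, from 0) by UMIs per barcode (horizontal axis, bins that double), for all barcodes of each reaction (left) and for 3 classes of MC38 barcodes (right), without the upper limit on genes and for bins of at least 20 barcodes. The MC38 lines rise to 29.4% and 27.8% in the deepest bin, those of TDLN reactions 1 and 2 stay between 22.1% and 26.7%, and the T class lies between 23.3% and 24.9% up to 4000 UMIs with a lone deep point at 29.0% (open square).

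Treatments were compared in the macrophage class of MC38 tumors, the largest class with barcodes of all 4 hashtags. The question was whether CPI, with or without ABT-317 after it, moved these genes. The share was 19.3% and 18.1% with isotype (3962 and 3757 barcodes), 16.0% and 14.3% with CPI (199 and 162), 19.0% and 18.3% with isotype + ABT-317 (288 and 214), and 17.0% and 16.1% with CPI + ABT-317 (271 and 338). Both CPI values lay below all isotype values. CPI minus isotype was -3.58 percentage points ± 0.327 (SD, n = 2 reactions), and CPI + ABT-317 minus isotype + ABT-317 was -2.17 ± 0.149. CPI + ABT-317 minus CPI was 1.39 ± 0.562, and isotype + ABT-317 minus isotype was -0.02 ± 0.384, with -0.30 and 0.25 in the 2 reactions. Without the limit of 2500 genes CPI minus isotype was -6.01 and CPI + ABT-317 minus CPI was 3.06, and as medians over barcodes the latter was 0.764.

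The gap between CPI and isotype depended on depth. At 2000 to 4000 UMIs it was -3.97 and -4.73 percentage points, and at 4000 to 8000 UMIs -4.17 and -4.97, where CPI had only 11 and 14 barcodes. At 1000 to 2000 UMIs it was -0.54 and 0.91, and at 500 to 1000 UMIs it was 1.41 and 1.38, the other direction. CPI + ABT-317 minus CPI likewise was 1.33 and 2.26 at 2000 to 4000 UMIs and -1.87 and -2.39 at 1000 to 2000 UMIs. Isotype + ABT-317 minus isotype was -2.43 and -0.57 at 1000 to 2000 UMIs and -0.85 and -0.33 at 2000 to 4000 UMIs. At 4000 to 8000 UMIs it was 0.29 and 0.24. CPI + ABT-317 minus isotype + ABT-317 was 0.01 and -0.91 at 1000 to 2000 UMIs. It was -1.79 and -2.13 at 2000 to 4000 UMIs and -2.67 and -2.03 at 4000 to 8000 UMIs.

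Other measures moved with the CPI hashtag. Median UMIs per macrophage class barcode were 1750 and 1986 with CPI and 2925 and 3517 with isotype, and the summed macrophage list, with 8 of 8 markers detected in each, was 8027 and 8657 CPM with CPI and 13157 and 16825 CPM with isotype. The T list was at 63.2 and 53.0 CPM with CPI and 6.76 and 3.48 CPM with isotype, and Trac and Cd28 in reaction 1 and Cd3e and Cd28 in reaction 2 were at 0 with CPI. Malat1 held 0.752% and 0.695% of UMIs with CPI and 0.560% and 0.514% with isotype. The CPI hashtag was the weakest, with centers of the fitted low and high components at 17.7 and 54.3 UMIs in reaction 1 and 10.1 and 36.6 UMIs in reaction 2, where isotype had 40.3 and 210 UMIs and 14.7 and 145 UMIs. Their part in the CPI values was not tested.

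**Figure D4:**
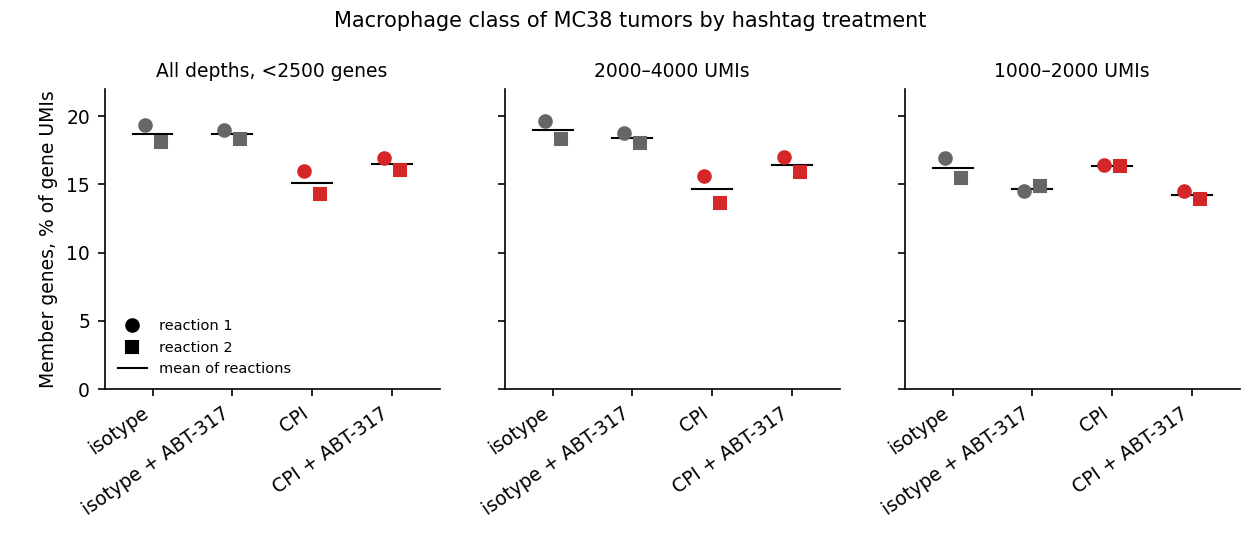
Share of gene UMIs held by the ribosomal protein genes (vertical axis, percent, from 0) in macrophage class barcodes of MC38 tumors by hashtag treatment (horizontal axis), with 1 point per reaction and a line at the mean, for all depths below 2500 genes (left), 2000 to 4000 UMIs (center), and 1000 to 2000 UMIs (right). CPI lies lowest on the left and in the center, at 16.0% and 14.3% for all depths, and not on the right, where CPI minus isotype is -0.54 and 0.91 percentage points.

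In the collagen class CPI was lowest too below 2500 genes, with 22.3% and 21.8% for isotype, 17.0% and 15.8% for CPI, 25.4% and 23.4% for isotype + ABT-317, and 21.9% and 18.6% for CPI + ABT-317. The differences depended on depth. CPI minus isotype was -1.54 and 2.66 percentage points at 2000 to 4000 UMIs, with a different direction in each reaction, and -6.48 and -5.60 at 4000 to 8000 UMIs. Isotype + ABT-317 minus isotype was 3.07 and 1.64 over all depths, -0.02 and -2.18 at 2000 to 4000 UMIs, and 2.55 and 0.37 at 4000 to 8000 UMIs, from as few as 18 barcodes. CPI + ABT-317 minus CPI was 4.87 and 2.81 over all depths, -4.73 and -2.61 at 2000 to 4000 UMIs, and 6.08 and 4.10 at 4000 to 8000 UMIs. Without the limit of 2500 genes it was 8.58 and 8.70, and CPI minus isotype was -8.55 and -9.56. Within depth bins these no-limit differences were mostly smaller. CPI + ABT-317 minus CPI was -0.44 and 0.12 at 4000 to 8000 UMIs, 3.45 and 5.83 at 8000 to 16000, and -0.55 and 0.73 at 16000 and over. CPI minus isotype was -3.95 and -1.94, -5.03 and -9.18, and 0.37 and -1.39 in the same bins. In the T class nearly all barcodes with 1 hashtag carried that of CPI (236 and 283, against 14 and 8 for isotype, 0 and 0 for isotype + ABT-317, and 0 and 6 for CPI + ABT-317), and treatments were not compared there.

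Member by member, edgeR's quasi-likelihood test on macrophage class sums per treatment and reaction called 22 of 79 members lower with CPI than with isotype and none higher, at an adjusted p of 0.05 over 8273 genes, of which 7.66% were called lower. These calls describe a contrast that was in view when the group was chosen. The median log2 difference of the members was -0.31, against -0.01 for all genes, and 74 of 79 were below 0. Of the 33 small and 46 large subunit members, 7 and 15 were called. With the reaction as a block, since all 4 sums of a reaction come from 1 library, 61 were called lower, against 12.8% of all genes, and 2 higher. When the leading hashtag was taken in place of the fitted calls, 6 were called lower, or 7.59% against 5.85% of all genes, and without the limit of 2500 genes 43 were, or 54.4% against 8.99%.

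Among the called members, Rps19bp1 had 15.2 and 13.9 CPM with CPI and 47.6 and 38.2 CPM with isotype, a log2 difference of -1.55 (SE 0.388). Rpl7l1 had 15.2 and 22.3 CPM against 47.5 and 53.5 CPM, a difference of -1.45 (SE 0.328). Both are low genes that encode no core ribosomal protein, and their CPI values rest on 6 and 5 UMIs and on 6 and 8 UMIs. Rps18, a core protein of the small subunit, was at 1344 and 1180 CPM with CPI and 2209 and 2249 CPM with isotype, a difference of -0.82 (SE 0.143). Rpl32 was at 2539 and 2385 CPM against 4262 and 4351 CPM (-0.81, SE 0.141), and Rpl29 at 682 and 882 CPM against 1160 and 1448 CPM (-0.74, SE 0.226). These 5 were named as the largest calls, so that CPI and isotype lay apart in them follows from the choice. The other 17 called members, from Rps2 (-0.73) to Rpl21 (-0.45), included Rps6, the substrate of S6 kinase, and Rpl11, which binds Mdm2 with Rpl5.

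ABT-317 after isotype called 0 of 79 members, against 0.0363% of all genes called in either direction. None had an unadjusted p below 0.05 in edgeR, against 3.89% of all genes, DESeq2 called 0, and the members' log2 differences lay between -0.16 and 0.33. With the reaction as a block 0 were called too, against 1.26% of all genes. In that fit 5 members, all lower, had an unadjusted p below 0.05 in edgeR. These were 6.33% of the members, against 8.84% of all genes in either direction and 4.57% lower. ABT-317 after CPI called 4 of 79 members higher than CPI alone, a share near the 4.51% of all genes. With the reaction as a block 34 were called higher, against 8.51% of all genes, and 3 lower, so that the count against its background depended on the fit. With the leading hashtag and without the low-count filter 0 were called, against 2.99% and 0.611% of all genes called higher. At an unadjusted p below 0.05 in edgeR there were 5 and 32 in these fits, all higher. These were 6.33% and 39.5% of the members tested, against 21% and 11.1% of all genes in either direction, so below and above that background. A class lead of 1 called 1, against 4.03%, DESeq2 called 3, against 3.43%, and 9 were called without the limit of 2500 genes, against 4.84%. The 4 were Rps19bp1, at 51.3 and 41.4 CPM with CPI + ABT-317 (log2 difference 1.66, SE 0.411), Rpl7l1, at 49.2 and 39.9 CPM (1.25, SE 0.359), Rpl32, at 3512 and 3551 CPM (0.53, SE 0.141), and Rps18, at 1712 and 1868 CPM (0.51, SE 0.143). These comparisons share the CPI sums of 395805 and 358436 UMIs, the smallest of the 8, and are not independent of each other.

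CPI + ABT-317 against isotype + ABT-317 called 0 members in edgeR and 0 in DESeq2, with 1.85% of all genes called in either direction. At an unadjusted p below 0.05 there were 4 in edgeR, all lower, namely Rpl22l1, Rpl14, Rpl36, and Rps18. These are 5.06% of the members, near the 4.48% of all genes that were lower at that threshold, and below the 11.9% in either direction. With the reaction as a block 20 were called lower, against 2.21% of all genes. The members' median log2 difference was -0.13, against -0.02 for all genes. In the 7 other cytosolic ribosomal proteins, 2 were called lower with CPI than with isotype and the median was -0.39. Of 12 translation factors 1 was called higher and none lower there, of 14 ribosome biogenesis genes none, and of 77 mitochondrial ribosomal protein genes 5 lower.

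The T class was also compared between MC38 tumors and TDLNs, a contrast that the choice of genes had not used, although the MC38 shares by class were in view. The members' share was 23.2%, 24.5%, and 23.7% in TDLNs and 23.8% and 23.8% in MC38 tumors. The MC38 values lay within the range of the TDLN values. The difference was 0.04 percentage points, -0.26 without TDLN reaction 1, and 2.43 without the limit of 2500 genes, and is given with no test because MC38 shares had a part in the choice of the group.

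For single members, the contrast between tissues was tested. In edgeR's quasi-likelihood test, 22 of 79 members were higher in MC38 tumors, against 19.6% of 12233 genes tested, and 9 were lower, against 19.2%. These were 27.8% and 11.4% of the members, above and below the shares of all genes, but in either direction 39.2% of the members were called, against 38.8% of all genes. Without the limit of 2500 genes 53.2% of the members were higher, against 30.5% of all genes, and 8.86% lower, against 32.5%, which in either direction were 62.0% and 62.9%. The size of the excess of higher calls depended on the fit. Without TDLN reaction 2, 19% of members were called higher against 17.7% of all genes, and with reaction numbers as a block 20.3% against 18.1%. With DESeq2 these were 41.8% against 21.4%, with a class lead of 1 29.1% against 21.4%, and with a lead of 3 26.6% against 17.5%. Without MC38 reaction 2 the 12.3% called lower were not below the 11.6% of all genes. The members' median log2 difference was 0.22, where the median of all genes was -0.14, and the values ran from -1.34 to 1.51. The T class sums held 549658 and 515795 UMIs in MC38 tumors and 4871299 to 43779466 UMIs in TDLNs, so MC38 values are the less precise. CPM in this contrast are per 1000000 UMIs of the 31950 genes listed for both tissues, and are slightly higher than the CPM of the same classes above.

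The largest increases were in Rpl17 and Rps14. Rpl17, at the exit of the peptide tunnel, was at 1013, 1070, and 864 CPM in TDLNs and 2616 and 2800 CPM in MC38 tumors, a log2 difference of 1.51 (SE 0.149, adjusted p = 0.000124, edgeR). Rps14, of the small subunit, was at 1472, 1492, and 1267 CPM and 3864 and 3597 CPM, a difference of 1.45 (SE 0.142, adjusted p = 0.000118, edgeR). Rps27l rose from 88.2, 99.4, and 92.9 CPM to 321 and 167 CPM (1.43, SE 0.232), Rps6 from 743, 726, and 547 CPM to 1738 and 1604 CPM (1.36, SE 0.166), and Rpl23a from 302, 379, and 314 CPM to 943 and 682 CPM (1.34, SE 0.177). These 5 were named as the largest increases, so that the tissues lay apart in them follows from the choice.

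Rps29 fell the most, from 5448, 9661, and 9127 CPM in TDLNs to 3353 and 2862 CPM in MC38 tumors (log2 difference -1.34, SE 0.254, adjusted p = 0.00387, edgeR). Rps28 fell from 5095, 7075, and 7684 CPM to 2957 and 2438 CPM (-1.25, SE 0.208), and Rpl35 from 3665, 4762, and 5716 CPM to 2298 and 2001 CPM (-1.09, SE 0.205). Rpl6 and Rpl21 fell with differences of -0.92 (SE 0.269) and -0.90 (SE 0.144). All 5 were lowest in TDLN reaction 1 among the TDLNs, and were above both MC38 values there. Because they were named as the largest decreases, this separation of the tissues follows from the choice. Of the related genes, 26 of 78 mitochondrial ribosomal protein genes rose and 1 fell, 3 and 2 of the 7 other cytosolic ribosomal proteins rose and fell, 2 of 12 translation factors rose, and 1 and 4 of 15 ribosome biogenesis genes rose and fell.

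Tissue, tumor line, tissue dissociation, cell sorting, gene annotation, and Cell Ranger version go together in this comparison and cannot be told apart. Nor can treatment, since 236 and 283 of the 343 and 371 MC38 T class barcodes carried the CPI hashtag alone, whereas TDLN values cover the pooled treatments together. The summed B list was 1596 to 2235 CPM in the TDLN T class, with 8 of 8 markers detected, and 54.6 and 3.88 CPM in the MC38 T class, where Cd79a, Pax5, and Fcmr were among the markers at 0 in both reactions. The macrophage list was at 6.77 to 12.7 CPM in the former and 737 and 741 CPM in the latter. The part of these markers in the members' differences was not tested.

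**Figure D5:**
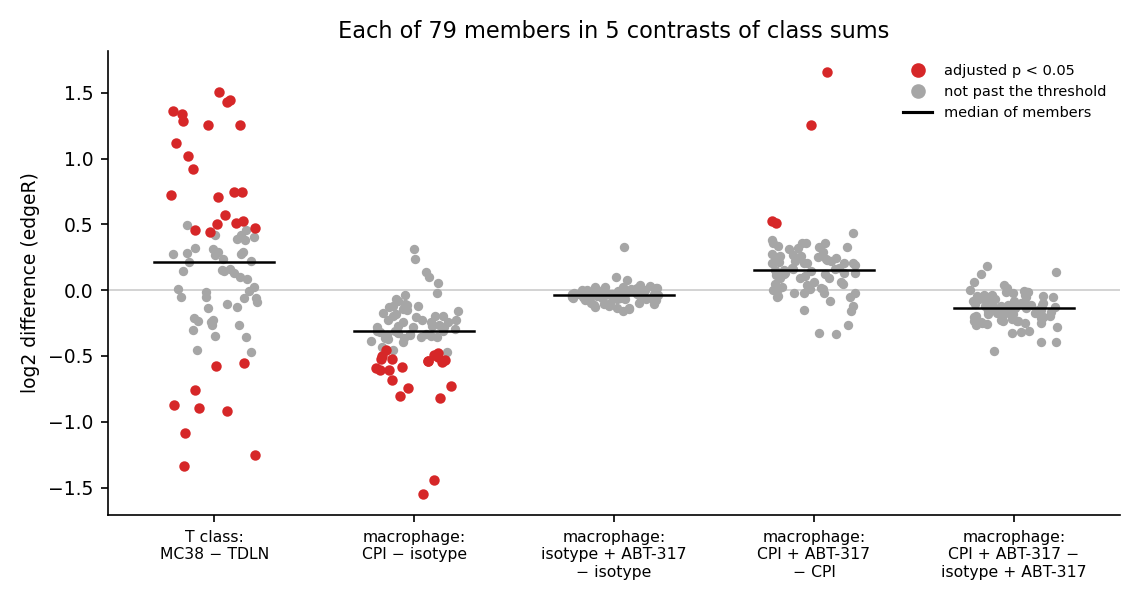
Log2 difference of each of 79 members (points, vertical axis, edgeR) in 5 contrasts of class sums (horizontal axis), red where the adjusted p was below 0.05 and gray otherwise, with a line at the members' median. The T class contrast spreads from -1.34 to 1.51 around a median of 0.22, CPI minus isotype has 22 members called lower around -0.31, and isotype + ABT-317 minus isotype has none called.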

How the data were processed

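Per the methods of the study, single-cell suspensions were run on the 10x 5′ assay and the authors aligned reads and counted UMIs with Cell Ranger. The deposited values are UMI counts per gene and barcode, with no normalization, and hashtag counts per barcode. Headers of the TDLN files give Cell Ranger 7.1.0, those of the MC38 files give 8.0.1, the submitters' processing notes name Cell Ranger 3.1.0 with GRCm38, and the gene lists of the tissues differ, with 31950 genes in common.

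Barcodes were filtered, put in classes by markers, and summed as described above, with no doublet caller run. A hashtag was called from a fit of 2 components, with exactly 1 present. Sums were tested across all genes with edgeR 4.0.16 (TMM, filterByExpr, quasi-likelihood, Benjamini-Hochberg, threshold 0.05) in R 4.3.3, with DESeq2 1.42.0 as an alternative, and the fits were tested on simulated data. Shares used Python 3.11.15, numpy 2.4.6, pandas 2.3.3, and scipy 1.17.1, and plots matplotlib 3.10.9. Class differences used log2 with 0.5 counts added. Treatment sums with the same number come from 1 reaction and deviated together (r of 0.128 to 0.467 over 8273 genes), so blocked values stand beside those results.

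The members, gene lists, and tests were chosen with earlier results of these data known. Named genes were the 10 members with most UMIs per tissue, all paralog-type symbols, in class contrasts the 5 farthest on each side of the members' median with at least 200 UMIs, in tested contrasts the 5 largest calls per direction, and the 10 other genes closest to the share. Called members named beyond those 5, and the 4 at an unadjusted p below 0.05, were added after their values were seen. A few genes that the rule names are not reported here. The planned contrast of tumor cells by keratins could not be made. Other filters, classes, hashtag calls, normalizations, and single reactions left out were tried as alternatives.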

Additional observations from a re-analysis of the deposited data

Results flagged for a closer look

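UMIs were also assigned to ribosomal protein symbols with the suffix -ps, which no comparison above uses. There were 3446, 3272, and 533 UMIs in TDLN reactions 1, 2, and 3 and 25356 and 21973 UMIs in MC38 reactions 1 and 2, above the floor of 3 counts. They came from 5 symbols in TDLNs and 4 in MC38 tumors, Rpl10-ps3 and Rpl9-ps6 being listed for both, and amounted to 0.0119% to 0.0228% of the members' UMIs.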

How the results depend on the processing

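Of the alternatives to the values that answer a comparison, 73 kept direction and call or stayed within the spread, 18 moved, 6 became stronger, 4 weaker, and 7 reversed. For a share difference within MC38 tumors, leaving out 1 of the 2 reactions could only stay within the spread or reverse. Such cases among the 73 therefore say nothing about stability. Without the upper gene limit, T minus macrophage class was 3.08 percentage points, CPI minus isotype -6.01, isotype + ABT-317 minus isotype 0.286, CPI + ABT-317 minus CPI 3.06, and CPI + ABT-317 minus isotype + ABT-317 -3.24. As medians over barcodes the 4 treatment differences were -3.09, -0.546, 0.764, and -1.77, and at 2000 to 4000 UMIs the first, second, and last were -4.35, -0.588, and -1.96. With the leading hashtag, CPI minus isotype was -2.70 and CPI + ABT-317 minus isotype + ABT-317 -1.36. A class lead of 3 gave -3.94 for CPI minus isotype and 0.0239 for isotype + ABT-317 minus isotype, for which a lead of 1 gave 0.0286. The core genes with 7 other ribosomal proteins gave -2.34 for CPI + ABT-317 minus isotype + ABT-317, 13.3 for depth, and -0.222 for the T class share, MC38 minus TDLN, which a lead of 3 made -0.323, medians over barcodes 1.12, and no gene limit 2.43. That difference has no call to keep, because 2 against 3 reactions cannot give an exact permutation p below 0.1, and it was judged by the spread between reactions, a choice made after seeing the data.

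Leaving out 1 reaction at a time, isotype + ABT-317 minus isotype ranged from -0.296 to 0.247, without MC38 reaction 1, and the T class share from -0.260, without TDLN reaction 1, to 0.375. The members' median log2 difference between reaction values for isotype + ABT-317 minus isotype was -0.0019 and ranged from -0.0256 to 0.0217. Members called between CPI and isotype were 63 with the reaction as a replicate block, 43 without the gene limit, and 6 with the leading hashtag, or 79.7%, 54.4%, and 7.59% of members, against 27.5%, 21.7%, and 13.5% of all genes called in either direction. For CPI + ABT-317 against CPI they were 37 with the block (against 17.9% of all genes), 9 without the limit (against 12.2%), 1 with a lead of 1 (against 8.92%), 0 with the leading hashtag (against 7.16%), and 0 without the low-count filter (against 1.24%). In the last 2 fits 5 and 32 members had an unadjusted p below 0.05 in edgeR. These were 6.33% and 39.5% of members, against 21% and 11.1% of all genes. The block gave 20 for CPI + ABT-317 against isotype + ABT-317 (against 7.03%). In the T class 49 were called without the limit (against 62.9% of all genes), 44 with DESeq2 (against 38.5%), and 21 to 28 with 1 reaction left out (against 18.9% to 39.9%). Numbers of TDLN and MC38 reactions do not pair (r of -0.0175 and -0.0473), and a block on them left 25 calls (against 35.7% of all genes). The block changed no member's call for isotype + ABT-317 against isotype, where it called 1.26% of all genes. Causes were not tested. Every treatment value rests on 2 reactions, and those of CPI on few barcodes.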

Other observations

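The endothelial class of MC38 tumors, of 59 and 42 barcodes, differed from the macrophage class in single members although its share was close. Rpl15, a large subunit protein, was at 2230 and 2750 CPM in the endothelial class and 1623 and 1784 CPM in the macrophage class, with a mean log2 difference of 0.54. Rps21 and Rps27 followed with 0.45 and 0.45, and Rpl32 was farthest below with -0.53. In the neutrophil class, Rps27 was at 1565 and 1184 CPM and the macrophage class at 1519 and 1194 CPM, whereas Rps2 was at 2009 and 1292 CPM against 3603 and 3899 CPM. These values come from few barcodes and carry no test.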
